A study of Oryzias latipes with 5 samples.

Results

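The genes described here are the matrix metalloproteases (MMPs), the ADAM and ADAMTS proteases, the ADAMTS-like proteins, the tissue inhibitors of metalloproteases (TIMPs) and the HTRA serine proteases of medaka cells that carry a col10a1:nlGFP reporter. They were chosen by gene name, as every row whose symbol begins with mmp, timp, adamts, adamtsl, adam or htra followed by a number, or with reck. The rule found 56 of the 25689 genes in the deposited table: 20 MMP, 15 ADAM, 14 ADAMTS, 2 ADAMTS-like, 3 TIMP and 2 HTRA genes, and no reck. A further 26 rows are described in the table as proteins of these families but carry another symbol or none, and they were kept apart.

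The study sequenced messenger RNA of Oryzias latipes, strain Cab, from fish 10 days post fertilization that had been kept at 30 °C, and compared heterozygous carriers of a col10a1 mutation with their wild-type siblings. There were 3 wild-type libraries (genotype col10a1wt/wt) and 2 mutant libraries (genotype col10a1wt/mut), and the fish of both groups were homozygous for col10a1:nlGFP. Every mutant therefore kept 1 wild-type col10a1 allele. The labels call the cells chondrocytes and osteoblast progenitors and the libraries biological replicates. How the cells were sorted and how many fish went into a library are not stated, so the tests measure only the spread between these libraries.

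MMPs are zinc-dependent proteases that are made as inactive proenzymes and cut collagens and other matrix proteins, some of them anchored in the cell membrane (membrane-type MMPs). ADAM proteases are membrane proteins that shed the outer parts of other membrane proteins, ADAMTS proteases are secreted and cut proteoglycans or process procollagen, and ADAMTS-like proteins lack the protease domain. TIMPs occupy the active sites of MMPs and of some of the other metalloproteases, and secreted HTRA enzymes are serine proteases that also cut matrix proteins. In the mammalian growth plate, collagenase 3 (MMP13) is made by hypertrophic chondrocytes and osteoblasts, and gelatinase B (MMP9) by resorbing cells at the cartilage border.

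Depth was similar, with 24791662 to 28012092 reads per library as implied by the deposited FPKM (fragments per kilobase, scaled by the authors to gene length and depth). The depth used in that scaling was 1.23 times these reads in mutant library 2 and 0.98 to 1.08 times them in the others. Mutant library 2, 1 of the 2 mutants, stood apart: 13355 genes were listed at 0 there, against 4555 to 6292 in each other library, and its Pearson's r with the others, on log2(FPKM + 1) across tested genes, was 0.80 to 0.82 where all other pairs reached 0.95 to 0.97. A count of 3 reads on 1 kb equalled 0.0871 FPKM in that library and 0.0990 to 0.120 FPKM in the others, a floor that covers counting error only. Markers of the labelled cells were present in every library, with the osteoblast factor sp7 at 193 to 279 FPKM, the mineralization phosphatase phospho1 at 4894 to 6243 FPKM and the cartilage protein matn1 at 33.7 to 150 FPKM. The 8 endothelial markers found summed to only 2.38 to 4.95 FPKM per library, whereas 7 epidermal markers summed to 619 to 1638 FPKM and 8 liver, gut and pancreas markers to 19176 to 58734 FPKM. Fewer cells of a type and less RNA per cell cannot be told apart in such bulk libraries.

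In wild-type cells a few genes carried most of the level. The gelatinase mmp2, a type IV collagenase, ranked first at 128 ± 39.996 FPKM (SD, n = 3), with 82.7, 158 and 144 FPKM in wild-type libraries 1 to 3. The inhibitor timp2 followed at 95.7 ± 13.4 FPKM (SD, n = 3), and since the lowest mmp2 value lay below 2 of the 3 timp2 values, the pair overlapped. All 3 timp2 values lay above the highest value of mmp9, which came next at 40.8 ± 24.4 FPKM (SD, n = 3). Together mmp2, timp2 and mmp9 made up 52.2% of the summed wild-type mean FPKM of the 56 genes, and the first 12 genes 87.1%.

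The next ranks were close to each other. They were timp3 at 29.3 ± 5.84 FPKM (SD, n = 3), HTRA3 at 25.3 ± 4.68, the membrane-type collagenase mmp14 at 25.2 ± 7.80, adam28 at 24.8 ± 6.57, htra1a at 19.6 ± 5.13 and mmp14a, a second membrane-type gene of that name, at 16.7 ± 4.97. Each of these overlapped its neighbour in the order, as did adamts1 and adamts18 at 13.6 ± 2.79 and 11.7 ± 3.12 FPKM, and adam17a, a sheddase of growth factor precursors, at 10.7 ± 1.73. Below adam17a came a gap, since its lowest library (8.81 FPKM) lay above the highest of adam10b, the other main sheddase, at 5.92 ± 0.645 FPKM (SD, n = 3). The median gene of the set stood at 1.35 FPKM in wild type, against 1.13 FPKM over all 25689 genes.

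**Figure D1:**
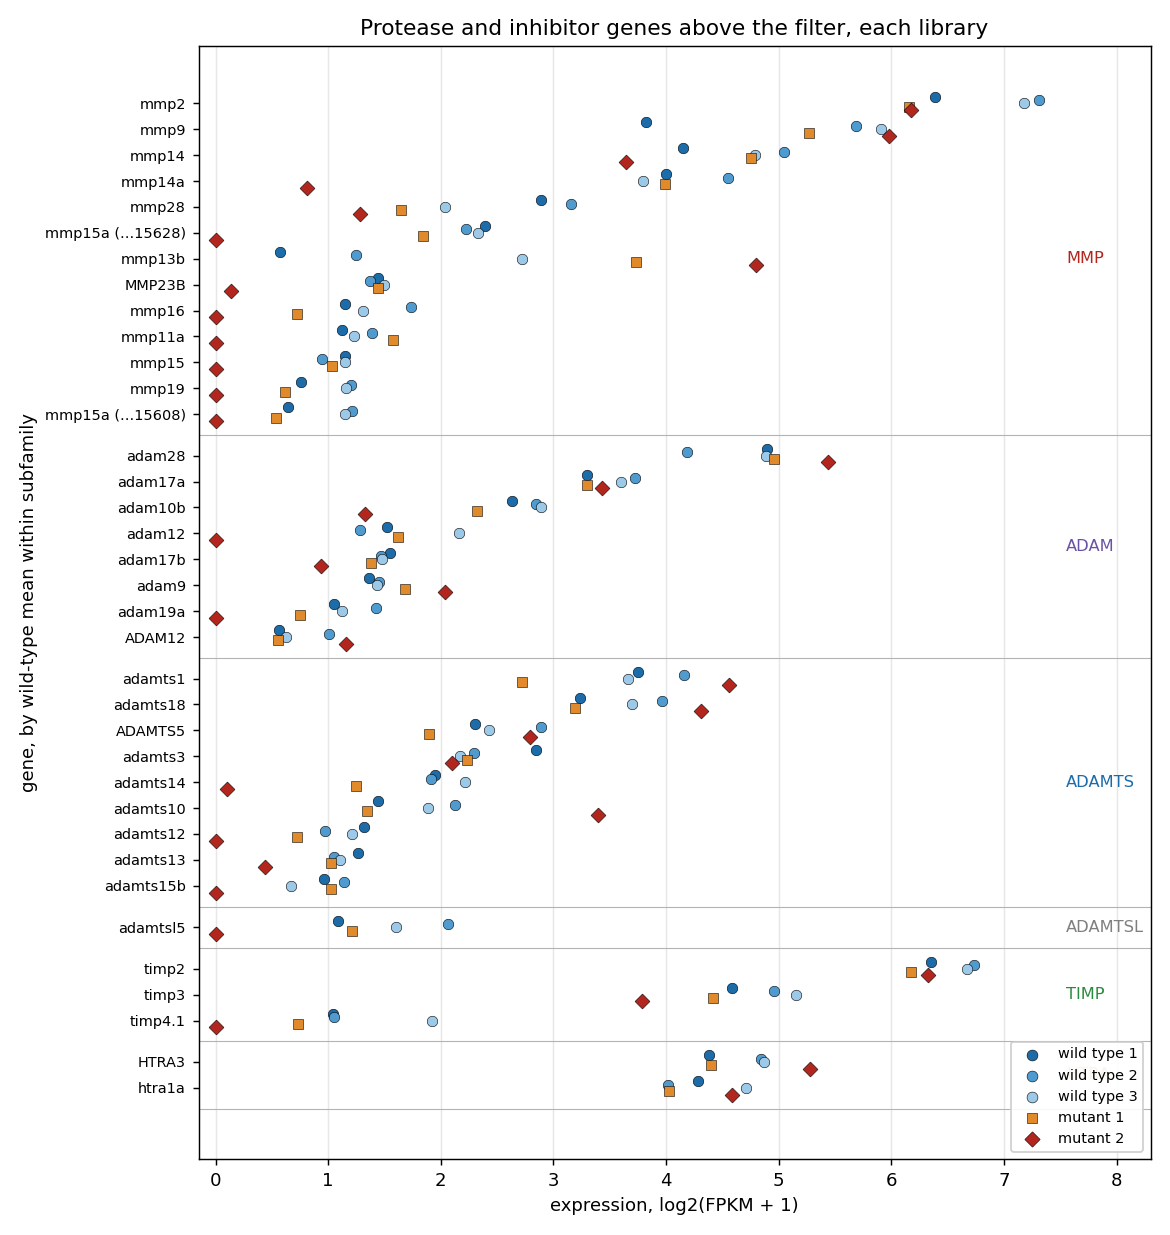
Expression, as log2(FPKM + 1), of the 36 genes that reached at least 1 FPKM in at least 2 libraries, by subfamily and in the order of the wild-type mean, with 1 point per library (points are set apart vertically only to keep them visible). mmp2, timp2 and mmp9 lead the order, mmp13b is the gene with both mutant points farthest to the right of the wild-type points, and mutant library 2 lies at 0 for 12 of the genes.

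By subfamily, MMPs held 38.1%, 50.1% and 47.2% of the summed FPKM of the 56 genes in wild-type libraries 1 to 3 and 45.3% and 38.9% in mutant libraries 1 and 2. TIMPs held 23.9% to 27.1% in wild type and 24.1% and 20.5% in the mutants, the first inside and the second below the wild-type range. For ADAMTS genes the mutant shares of 7.16% and 13.5% lay on either side of the wild-type range, 7.80% to 10.96%. Within the MMPs, mmp2 made up 54.3% to 56.3% of the summed FPKM in wild-type libraries and 40.6% and 40.9% in the mutants. The mmp13b share of the MMPs was 0.333%, 0.477% and 2.11% in wild type and 7.08% and 15.4% in the mutants. These shares are descriptions and were given no test.

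**Figure D2:**
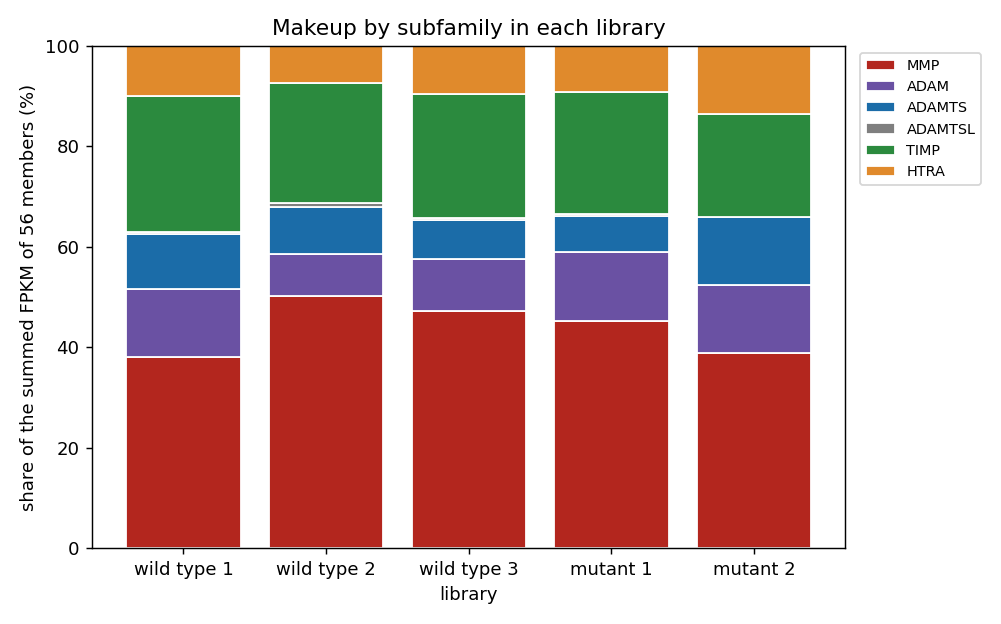
Share of the summed FPKM of the 56 genes (%) held by each subfamily in each of the 5 libraries, as stacked bars. MMPs take 38.1% to 50.1% in every library, and the ADAMTS and HTRA shares are largest in mutant library 2, at 13.5% and 13.6%.

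The genotypes were compared gene by gene with limma on log2(FPKM + 1), over the 13680 genes that reached 1 FPKM in 2 or more libraries, with Benjamini-Hochberg adjustment over all of them. This filter kept 36 of the 56 genes, and a low gene can pass it through the group where it is high: 13 MMP, 8 ADAM, 9 ADAMTS, 1 ADAMTS-like, 3 TIMP and 2 HTRA. None passed at an adjusted p under 0.05, where 1 of all 13680 genes (0.00731%) did, a gene outside these families. At an unadjusted p under 0.05 there were 6 of the 36, against 10.8% of all genes tested, with 1 positive difference (background 3.21%) and 5 negative ones (background 7.60%). voom on the recovered reads also called 0 of the 36, with 5 at an unadjusted p under 0.05, where 11.2% of all genes were. Leaving out mutant library 2 gave 0 of 35 called (background 0.0149%) and 5 at an unadjusted p under 0.05 (background 7.08%). With mutant library 1 left out instead, so that mutant library 2 alone stood for the genotype and its spread was taken from the wild type, 19 of 35 were called, a share of 54.3% that equals the 54.3% of all genes called in that fit.

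The collagenase gene mmp13b (ENSORLG00000014453, chromosome 13, 28321217 to 28325787, minus strand, by the deposited coordinates, whose build is not named) had the largest positive difference of the 36. Wild-type libraries 1 to 3 held 0.490, 1.37 and 5.58 FPKM of it, from 25, 79 and 333 reads, and mutant libraries 1 and 2 held 12.3 and 26.9 FPKM, from 607 and 1822 reads. Both mutants lay above every wild-type library, and the wild-type libraries themselves spanned more than their mean, 2.48 ± 2.72 (SD, n = 3) against 19.6 ± 10.3 FPKM (SD, n = 2). The log2 difference was 2.75 (SE 0.69, 95% interval 1.14 to 4.37) and the adjusted p 0.399. Over the 10 splits an exact two-sided permutation test gave p = 0.2, where 0.1 is the smallest it can give. With mutant library 2 left out the adjusted p was 0.557, with mutant library 1 left out it was 0.00231, and the log2 difference stayed between 2.22 and 3.53 over all alternative settings.

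A further pair of rows is described as collagenase 3, both outside the name rule and chosen once their values were known. The row named coll (ENSORLG00000020553, chromosome 14, 30506902 to 30509749, minus strand) had wild-type values of 2.15, 3.93 and 4.35 FPKM and mutant values of 5.34 and 14.3 FPKM, again with no overlap. Its log2 difference was 1.17 (SE 0.52, adjusted p = 0.399). That difference was 0.54 without mutant library 2 and 1.81 without mutant library 1. The unnamed row beside it (ENSORLG00000026048, 30497566 to 30504179), 2.72 kb away, was listed at 0, 3.22 and 0.471 FPKM in wild type and at 0 and 11.3 FPKM in the mutants, so its groups overlapped. Near-identical copies could share reads, which makes the split between coll and its neighbour uncertain. Of the other rows described as MMPs outside the name rule, ENSORLG00000015127 was at 0 in every library. For str-3 and ENSORLG00000011001, added with their values known, both mutants lay below every wild-type library. Their log2 differences were -1.52 (SE 0.55) and -0.77 (SE 0.41), each with an adjusted p of 0.399. Without mutant library 2 they were -0.79 and -0.23, and without mutant library 1 -2.24 and -1.32. Mutant library 2 listed str-3 at 0.

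The gelatinases gave different pictures. mmp2 (ENSORLG00000013688, chromosome 3, 28949724 to 28962821, minus strand) was at 70.5 and 71.1 FPKM in mutant libraries 1 and 2, below all 3 wild-type values, the lowest of which was 82.7 FPKM. Its log2 difference was -0.79 (SE 0.31, 95% interval -1.52 to -0.07), with an adjusted p of 0.399, and the 2 mutant libraries differed from the wild-type mean by nearly the same amount, -0.80 and -0.79. mmp9 (ENSORLG00000006340, chromosome 7, 10928521 to 10932796, minus strand) was at 13.1, 50.3 and 59.0 FPKM in wild type and at 37.4 and 62.1 FPKM in the mutants. Wild-type library 1 was the low one, and the groups overlapped. The log2 difference of mmp9, 0.49 (SE 0.61, adjusted p = 0.661), was -0.17 without wild-type library 1 (adjusted p = 0.843).

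Because gelatinase B is also made by osteoclasts, macrophages and neutrophils in mammals, their markers were read beside it. Of 15 osteoclast and macrophage markers 9 were found, with a summed level of 92.4 to 99.5 FPKM in wild type and 65.8 and 113 FPKM in the mutants, most of it from the cathepsin ctsk (69.2 to 80.7, and 49.5 and 103 FPKM). The fusion gene DCSTAMP was listed at 0 in all 5 libraries, and the receptor csf1ra reached no more than 1.12 FPKM. In mutant library 2, 6 of the 9 rows were at 0, where 52% of all genes in the deposited table were. The 5 neutrophil rows found, for 6 markers, summed to 101 to 109 FPKM in wild type and to 170 and 115 FPKM in the mutants. Most of it came from lysozyme, lyz, and the more abundant of the 2 rows named mpx stood at 2.83 to 8.54 FPKM. In mutant library 2, 3 of the 5 neutrophil rows were at 0, against the same 52% of all genes. Of 6 osteoclast and macrophage rows tested 1 had a positive and 5 a negative difference (median -0.55). Of 4 neutrophil rows tested 1 was positive and 3 were negative (median -0.47). Over all genes tested 65.9% were negative, with a median of -0.31. Without mutant library 2 the 2 list medians were -0.42 and -0.01, against -0.16 over all genes. The part of these cells in the levels of mmp9 and mmp13b was not tested.

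**Figure D3:**
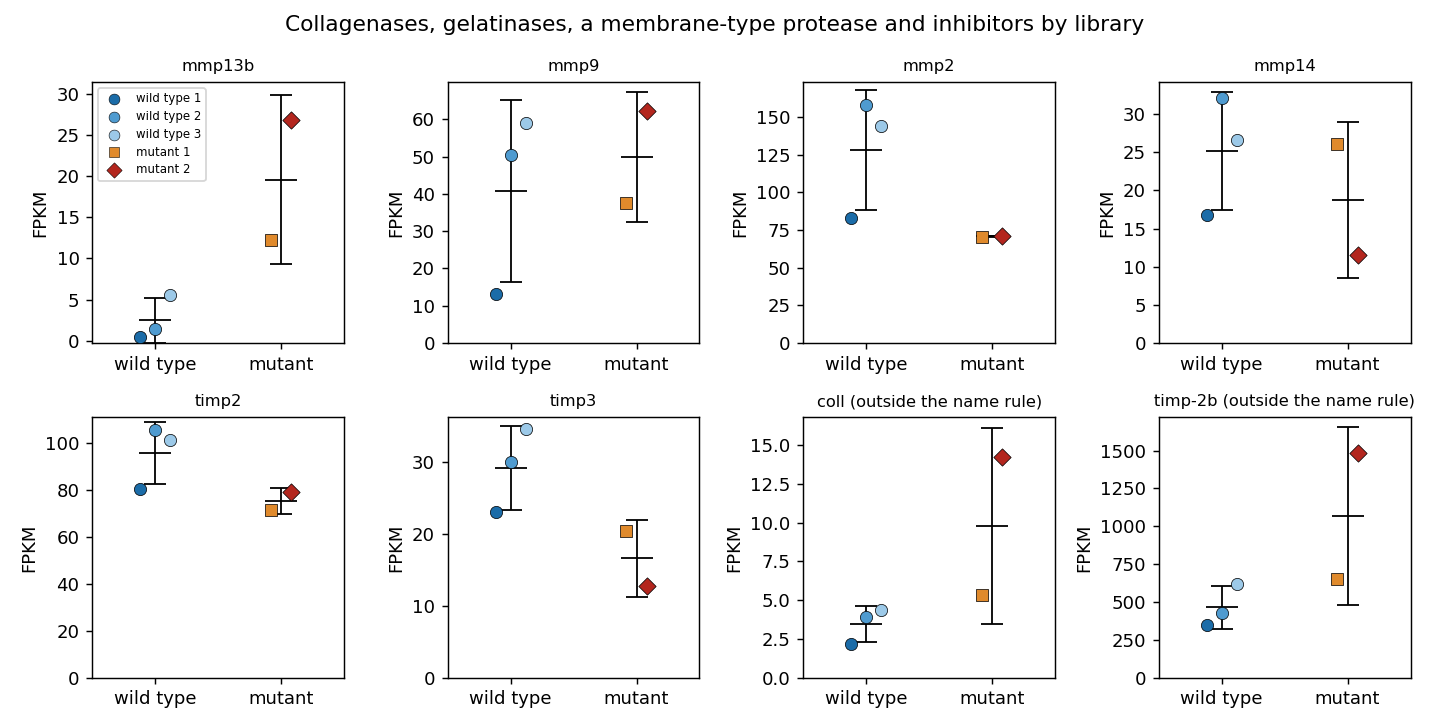
FPKM of 6 genes of the set and of coll and timp-2b, which lie outside the name rule, in each library. Points are libraries, horizontal bars are means and whiskers are 1 SD (n = 3 wild type, n = 2 mutant). For mmp13b, coll and timp-2b both mutants lie above all wild-type libraries, for mmp2, timp2 and timp3 both lie below, and mmp9 and mmp14 overlap.

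All 6 membrane-type MMP genes tested had a negative difference, with a median of -0.88. Over all genes tested 65.9% were negative, with a median of -0.31. Mutant library 2 listed 4 of the 6 at 0. Without that library the difference was negative for 5 of 6, with a median of -0.29 against -0.16 over all genes. After quantile normalization it was negative for 5 of 6, with a median of -0.37. mmp14 (ENSORLG00000012159, chromosome 17, 17709284 to 17722696, plus strand), whose mammalian counterpart activates proMMP2 at the cell surface, was at 16.8, 32.1 and 26.6 FPKM in wild type, at 26.0 in mutant library 1 and at 11.5 in mutant library 2. mmp14a (ENSORLG00000007318, chromosome 18, 17840575 to 17859817, plus strand), chosen once its values were known, was at 15.01, 22.3 and 12.9 FPKM in wild type, at 14.9 in mutant library 1 and at 0.755 in mutant library 2. Thus mutant library 1 lay inside the wild-type range for both genes and mutant library 2 below it. The log2 differences were -0.46 (SE 0.43, adjusted p = 0.549) for mmp14 and -1.71 (SE 0.83, adjusted p = 0.399) for mmp14a. Without mutant library 2 they were 0.09 and -0.12, and without mutant library 1 they were -1.02 and -3.30.

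Lower-level membrane-type genes were listed at 0 in mutant library 2. mmp15a (ENSORLG00000015628) was at 4.24, 3.66 and 4.04 FPKM in wild type and at 2.59 FPKM in mutant library 1, below all of them, with a log2 difference of -1.39 (SE 0.60, adjusted p = 0.399). A second, shorter row of the same name (ENSORLG00000015608) lies 2.61 kb from it on chromosome 6, and the 2 may share reads. mmp16 was at 1.22, 2.34 and 1.47 FPKM in wild type and at 0.654 FPKM in mutant library 1, a difference of -1.04 (SE 0.43, adjusted p = 0.399). Among the other MMPs, mmp28, a secreted MMP also called epilysin, was at 6.41, 7.90 and 3.10 FPKM in wild type and at 2.13 and 1.43 FPKM in the mutants, so both lay below the wild-type range. Its log2 difference was -1.23 (SE 0.50, adjusted p = 0.399), and ran from -1.56 to -0.997 with 1 library left out. Of the 7 MMP genes that were too low to test, all had a wild-type mean under 1 FPKM, among them mmp20a, the enamel protease in mammals, which lies 5.02 kb from mmp13b.

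Inhibitor genes lay lower in the mutants where the name rule found them. timp2 (ENSORLG00000010908, chromosome 19, 13247312 to 13263668, minus strand) was at 80.5, 105 and 101 FPKM in wild type and at 71.3 and 79.1 FPKM in the mutants, a small gap, with a log2 difference of -0.34 (SE 0.23, adjusted p = 0.443). timp3 (ENSORLG00000009218, chromosome 23, 2352440 to 2368280, minus strand), a matrix-bound inhibitor that also acts on ADAM and ADAMTS enzymes, was at 23.0, 30.1 and 34.6 FPKM in wild type and at 20.4 and 12.8 FPKM in the mutants. Its log2 difference was -0.80 (SE 0.32, 95% interval -1.54 to -0.05, adjusted p = 0.399), and ran from -1.11 to -0.48 with 1 library left out. timp4.1 was at 1.06, 1.08 and 2.79 FPKM in wild type. Mutant library 1 held 0.663 FPKM of it, and mutant library 2 listed it at 0. Its difference was -0.97 (SE 0.47, adjusted p = 0.399), and ran from -1.34 to -0.61 with 1 library left out. Both mutants lay below every wild-type library for all 3 TIMP genes, a pattern shown by 26.0% of all genes tested.

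The most abundant inhibitor row went the other way. The row named timp-2b (ENSORLG00000007689, chromosome 8, 10411087 to 10415618, minus strand), described as metalloproteinase inhibitor 2, has a hyphen in its symbol, which puts it outside the name rule, and was likewise picked with its values known. Wild-type libraries held 346, 427 and 621 FPKM, a mean of 465 ± 141 (SD, n = 3), and mutant libraries 652 and 1483 FPKM, a mean of 1068 ± 587 (SD, n = 2). Mutant library 1 was just above the highest wild-type library and mutant library 2 well above it. The log2 difference was 1.12 (SE 0.40, 95% interval 0.19 to 2.05) with an adjusted p of 0.399, which was 0.783 without mutant library 2 and 0.00150 without mutant library 1.

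Which TIMP rows are counted sets the ratio of summed MMP to summed TIMP level. With the 56 genes alone the ratio of FPKM sums was 1.41, 2.10 and 1.91 in wild-type libraries 1 to 3 and 1.88 and 1.90 in mutant libraries 1 and 2, within the wild-type range. With the rows added that are described as MMPs or TIMPs, it was 0.362, 0.554 and 0.379 in wild type and 0.257 and 0.130 in the mutants, both below the wild-type range. The only TIMP row so added was timp-2b, picked with its values known. That row held most of the summed TIMP level in every library, so the second ratio largely restates it. The ratio compares transcript levels per length, not proteins, and was given no test.

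No ADAM gene reached an unadjusted p under 0.05. adam28 was at 28.7, 17.2 and 28.5 FPKM in wild type and at 30.05 and 42.3 FPKM in the mutants, both above the wild-type range, and differed by 0.54 (SE 0.33, adjusted p = 0.413). adam17a was at 8.81, 12.2 and 11.1 FPKM in wild type and at 8.82 and 9.75 FPKM in the mutants, with overlapping groups and a difference of -0.18 (SE 0.33, 95% interval -0.94 to 0.59). adam10b, whose mammalian counterpart cleaves Notch, was at 5.18, 6.17 and 6.40 FPKM in wild type and at 3.99 and 1.51 FPKM in the mutants, both below the wild-type range. Its difference was -0.96 (SE 0.46, adjusted p = 0.399). That difference was -0.47 without mutant library 2 and -1.46 without mutant library 1. adam9 was at 1.58, 1.74 and 1.71 FPKM in wild type and at 2.22 and 3.09 FPKM in the mutants, from 53 to 138 reads per library, and differed by 0.44 (SE 0.42, adjusted p = 0.563). Of the 8 ADAM genes tested 3 had positive and 5 negative differences.

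The most abundant ADAMTS genes, adamts1, adamts18 and ADAMTS5, and the less abundant adamts10 parted the 2 mutant libraries. adamts3 and adamts14, both above adamts10 in wild-type level, were below the wild-type mean in both mutant libraries. adamts1, an aggrecan- and versican-cleaving enzyme, was at 12.5, 16.8 and 11.6 FPKM in wild type, at 5.59 in mutant library 1 and at 22.6 in mutant library 2, so that the mutants lay on either side of the wild-type range. The neighbouring gene ADAMTS5, the main aggrecanase of mouse cartilage, lies 4.05 kb from it on chromosome 2 and was at 3.93, 6.40 and 4.37 FPKM in wild type and at 2.71 and 5.94 FPKM in the mutants. adamts18 was at 8.40, 14.6 and 12 FPKM in wild type and at 8.12 and 18.8 FPKM in the mutants, and adamts10, which acts on fibrillin microfibrils, at 1.72, 3.36 and 2.69 against 1.54 and 9.53 FPKM. For all 4 genes mutant library 1 lay below the wild-type range, and mutant library 2 lay above it for all but ADAMTS5. Their log2 differences were -0.22 (SE 0.54), -0.19 (SE 0.47), 0.12 (SE 0.43) and 0.55 (SE 0.66), with adjusted p of 0.644 to 0.892. The log2 difference of adamts10 was 1.58 without mutant library 1 and -0.47 without mutant library 2.

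adamts14, which removes the amino-terminal propeptide of procollagen in mammals, had the lowest difference of the ADAMTS genes. It was at 2.87, 2.76 and 3.64 FPKM in wild type and at 1.38 and 0.0735 FPKM in the mutants, the last from 9 reads. Both mutants lay below the wild-type range, and the log2 difference was -1.35 (SE 0.50, 95% interval -2.50 to -0.19, adjusted p = 0.399). That difference was -0.77 without mutant library 2 and -1.92 without mutant library 1. adamts3, an enzyme of the same group added as an example, was at 6.16, 3.90 and 3.51 FPKM in wild type and at 3.69 and 3.28 FPKM in the mutants, with overlapping groups. Of the ADAMTS-like genes, adamtsl5 was at 1.13, 3.18 and 2.03 FPKM in wild type. It was at 1.31 FPKM in mutant library 1 and listed at 0 in mutant library 2. Its difference was -0.98 (SE 0.53, adjusted p = 0.399), and ran from -1.58 to -0.37 with 1 library left out. adamtsl2 was too low to test, at 0.185, 0.869 and 0.657 against 0.338 and 0 FPKM.

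The HTRA genes that carry a symbol had differences near 0. HTRA3 was at 19.9, 27.6 and 28.3 FPKM in wild type and at 20.1 and 37.7 FPKM in the mutants (0.14, SE 0.34, 95% interval -0.66 to 0.94), and htra1a at 18.4, 15.2 and 25.2 against 15.3 and 23.1 FPKM (-0.03, SE 0.34, 95% interval -0.81 to 0.76). Both overlapped between the groups, and the sign of each turned under other settings. A row without a symbol, described as serine protease HTRA1B (ENSORLG00000014973, chromosome 19, 24563970 to 24586454, minus strand), was also picked with its values known. Wild-type libraries held 35.6, 35.3 and 41.3 FPKM, a mean of 37.4 ± 3.35 (SD, n = 3), and mutant libraries 13.9 and 6.61 FPKM, a mean of 10.3 ± 5.18 (SD, n = 2). The log2 difference was -1.85 (SE 0.35, 95% interval -2.65 to -1.04) with an adjusted p of 0.399, 0.214 without mutant library 2 and 0.000116 without mutant library 1. The exact two-sided permutation test gave p = 0.1, the smallest it can give.

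**Figure D4:**
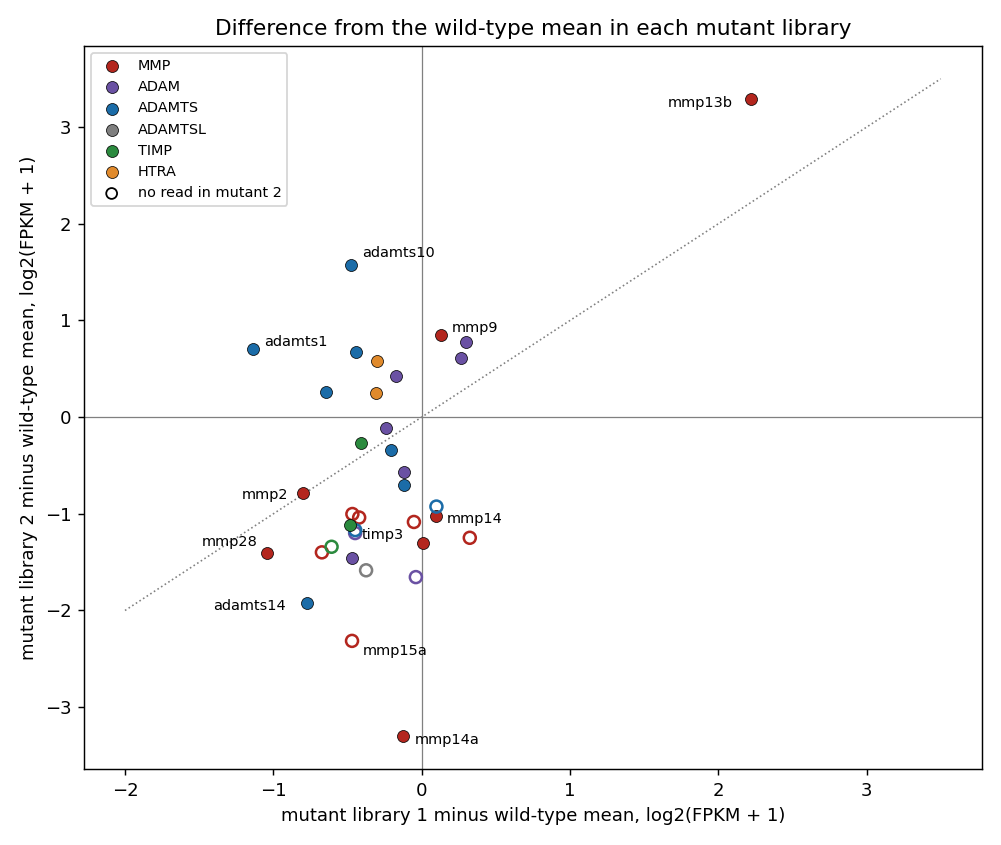
Difference of each mutant library from the wild-type mean, on the log2(FPKM + 1) scale, for the 36 genes tested: mutant library 1 on the horizontal and mutant library 2 on the vertical axis, coloured by subfamily, with open symbols for the 12 genes listed at 0 in mutant library 2 and a dotted line of equality. mmp13b lies at 2.22 and 3.29, mmp2 near the line at -0.80 and -0.79, mmp14a at -0.12 and -3.30, and adamts1 and adamts10 on opposite sides of 0 in the 2 libraries.

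Over all 13680 genes tested the median log2 difference was -0.31 and 65.9% were negative, and 28 of the 36 genes (77.8%) were negative, with a median of -0.46. Level matters here. The 20 genes with a wild-type mean of 1 to 5 FPKM had a median of -0.69, against -0.52 over all such genes tested. For the 14 at 5 FPKM or more it was -0.28, against -0.21. When the filter asked for 5 FPKM, 11 of 16 were negative, with a median of -0.21 against -0.18 over all genes. After quantile normalization, which moved the median of all genes to 0.01, 20 of the 36 (55.6%) were negative, against 48.8% of all genes. The medians were -0.73 for MMPs, -0.80 for TIMPs, -0.26 for ADAM and -0.27 for ADAMTS genes, and after quantile normalization they were -0.12, -0.37, 0.12 and 0.04, so the sign turned for ADAM and ADAMTS. Against the median of all genes the MMP median stood at -0.42, at 0.04 without mutant library 2, at -1.29 with a pseudocount of 0.1 FPKM (median of all genes -0.41) and at -1.94 with voom (median of all genes -0.36), while the TIMP median stood at -0.48, and at -0.32 without that library. The ADAM and ADAMTS medians stood at 0.05 and 0.04 against it. For ADAMTS the value was -0.28 without mutant library 2 (7 of 9 genes below the median of all genes). Without mutant library 1 it was 0.42, over the 8 genes that still passed the filter (5 above and 3 below). Over all 9 tested genes, the median deviation from wild type was negative for each mutant: -0.45 (library 1) and -0.34 (library 2). For all genes tested these medians were -0.16 and -0.49. The 9 genes thus lay below all genes in mutant library 1 and above them in mutant library 2. The size of the 0.42 depends on which genes were kept.

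Both mutants lay below every wild-type library for 15 of the 36 genes (41.7%), against 26.0% of all genes tested, and above every one for 3 (8.33%), the same share as the 8.33% of all genes. The 3 were mmp13b, adam28 and adam9. Mutant library 2 listed 12 of the 36 (33.3%) at 0, against 23.6% of all genes tested, and these 12 included 6 of 13 MMPs and 2 of 9 ADAMTS genes. The zeros followed level: none of the 14 genes whose wild-type mean reached 5 FPKM was at 0 there, against 9.55% of all such genes, and 11 of the 20 with a mean of 1 to 5 FPKM were, against 38.8% of all such genes. In mutant library 1 none of the 36 was listed at 0.

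The 20 genes too low to test had a wild-type mean of 0.00961 to 0.990 FPKM and reached 1.63 FPKM at most in any library. They included the ADAM genes ADAM11, ADAM23 and adam22, whose mammalian counterparts are mainly neuronal, the versican-cleaving adamts9 and ADAMTS20, and the membrane-type genes mmp16b, mmp17a, mmp17b, mmp24 and mmp25b.

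Several genes lie side by side on their chromosomes. Besides adamts1 with ADAMTS5 and mmp13b with mmp20a, ADAMTS15 and adamts15b lie 1.53 kb apart on chromosome 13, and mmp21 and ADAM12 14.02 kb apart on chromosome 19. The neighbours mmp13b and mmp20a stood at 12.3 and 0.240 FPKM in mutant library 1. In mutant library 2 mmp13b stood at 26.9 FPKM, and mmp20a, too low to test, at no more than 1.63 FPKM. In wild-type libraries 1 to 3 mmp13b stood at 0.490, 1.37 and 5.58 FPKM and mmp20a at 0.183, 0.368 and 0.617 FPKM.

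The proteins these enzymes cut and the factors that switch them on were read from lists of pathway genes. Of 15 matrix substrates tested, 0 passed and all 15 had negative differences, where 65.9% of all genes tested were negative. Their median was -0.77 against -0.31 over all genes. Both mutants lay below every wild-type library for 13 of them (86.7%), against 26.0% of all genes tested. The most abundant, sparc, a collagen-binding protein, had 6937, 6693 and 6969 FPKM in wild type against 4200 and 3390 FPKM in the mutants (-0.86, adjusted p = 0.399). matn1, a cartilage matrix protein, had a difference of -1.64, and matn4, a relative, one of -1.98, listed at 0 in mutant library 2. Chondrocyte markers, some of which are also on that list, were found in 8 rows for 12 entries and summed to 245 to 320 FPKM in wild type and to 130 and 164 FPKM in the mutants, with a median difference of -1.14. Osteoblast markers, 5 rows for 10 entries, summed to 6209 to 7068 FPKM in wild type and to 7506 and 7738 FPKM in the mutants. In every library most of that sum came from phospho1. The median difference of the osteoblast markers was -0.07, but the 5 rows ran from -2.11 to 0.25, with 2 positive and 3 negative. Both mutants lay below every wild-type library for 2 of them and above every one for 1. The unadjusted p of the limma fit was under 0.05 for 1 row, a negative one (background 7.60%). Other marker lists had medians of -0.34 (epidermis), -0.20 (muscle, 2 genes tested), -0.16 (red blood cell, 2 genes tested), -0.53 (tendon and fibroblast) and -0.72 (liver, gut and exocrine pancreas). On no list did any gene pass. The 2 red blood cell genes went opposite ways, at -0.79 and 0.46. The liver, gut and exocrine pancreas list also joins opposite directions. Mutant library 1 had its highest summed level of the 5 libraries (58734 FPKM) and mutant library 2 the lowest (19176 FPKM). The median of that list was 0.99 without mutant library 2 and -2.05 without mutant library 1. Their part in the differences of the proteases was not tested.

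Activating enzymes did not pass either. Of 9 proenzyme activators and processing enzymes tested 2 had positive and 7 negative differences (median -0.51, 0 passing), where 65.9% of all genes were negative, and after quantile normalization 6 were positive and 3 negative (median 0.06). furina, a convertase that activates membrane-type MMPs, was at 19.7, 20.9 and 17.1 FPKM in wild type and at 18.9 and 40.4 FPKM in the mutants, and bmp1a, which removes the carboxy-terminal propeptide of procollagen, at 9.95, 16.1 and 11.2 against 8.64 and 2.66 FPKM. Of 8 other protease inhibitors and clearance genes 2 had positive and 6 negative differences (median -0.18, 0 passing), and after quantile normalization 4 were positive and 4 negative. serpinf1, a secreted serpin, was the most abundant at 149, 162 and 169 FPKM in wild type against 143 and 130 FPKM in the mutants.

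Of 10 ADAM substrates and partners tested 4 had positive and 6 negative differences (median -0.07, 0 passing). The share of all genes tested that were negative was 65.9%, with a median of -0.31. After quantile normalization 7 of the 10 were positive and 3 negative (median 0.25). The growth factor precursor hbegfa, which ADAM17 sheds in mammals, was at 32.1, 28.1 and 44.6 FPKM in wild type and at 44.1 and 68.5 FPKM in the mutants, with overlapping groups (0.67, adjusted p = 0.399). Of 17 transcription factors known to drive collagenase genes 5 had positive and 12 negative differences (median -0.35, 0 passing). Their negative share of 70.6% and their median were near those of all genes tested. After quantile normalization 8 were positive and 9 negative. The AP-1 component junbb was the most abundant, with a difference of -0.36 (adjusted p = 0.411), and jun, another, was at 384, 515 and 435 FPKM in wild type and at 273 and 285 FPKM in the mutants (-0.66, adjusted p = 0.399). Of 8 cathepsins and other matrix-degrading proteases tested 3 had positive and 5 negative differences (median -0.13, 0 passing), and ctsl, a lysosomal protease, was the most abundant at 347, 264 and 283 against 276 and 228 FPKM.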

How the data were processed

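Messenger RNA of 3 wild-type and 2 mutant libraries was analysed. The submitters' processing notes name the aligner HISAT2 2.0.5 and the read counter featureCounts 1.5.0-p3. Neither build nor annotation nor strandedness is stated there, so reads of overlapping genes could not be told apart. The authors deposited FPKM per gene. FPKM times gene length came out in whole steps within 0.02 reads, which gave reads per library. Names, lengths and descriptions are those of the deposited table, and a reference table matched 0 of its gene identifiers.

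limma 3.58.1 (R 4.3.3) was fitted to log2(FPKM + 1) with a mean-variance trend and no covariate, on the genes that reached 1 FPKM in 2 or more libraries, and adjusted by Benjamini-Hochberg over all of them. Fold changes on this scale understate those of low genes. The fit was run on simulated data, with every library drawn from the wild-type means and changes set for some genes in the mutants. No simulated library was given the extra zeros of mutant library 2, so that run does not cover them. Permutation tests were exact, over 10 splits. Members, lists and tests were chosen with earlier results of these data known. Named were mmp13b, the 3 most abundant genes of each subfamily, 6 higher and 6 lower with the smallest p, and tested TIMP and HTRA genes, with others added as examples. The 14 alternative settings varied the pseudocount, filter, scaling, variance model, block, test and libraries. Python 3.11.15 and matplotlib 3.10.9 were used. An item of the lists is not reported here.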

Additional observations from a re-analysis of the deposited data

How the results depend on the processing

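Directions were counted over all alternatives, some of which cannot change them. A changed filter or no mean-variance trend leaves a log2 difference as it was. The block gives the same difference as leaving out wild-type library 3. No named gene passed in the main fit, so keeping the side of the threshold is the default. The count of values that held is therefore partly fixed in advance. Of 301 values of the 22 named genes under alternatives 274 kept their direction and side of the threshold, 12 passed it in addition and 15 turned, with 11 of the 12 without mutant library 1. The wild-type mean share of the MMPs was 42.6% to 48.7% with 1 library left out. Such means of the same wild-type libraries cannot move by 1 SD, so the subfamily shares gave no check. The number of genes past the threshold in the main fit was 1 of all 13680 genes, 0 of the 36 and 0 of the list genes. With the replicate number as a block it was 145 of the 13680, 1 of the 36 and 5 of the list genes. That fit leaves wild-type library 3 without a partner, so it does not enter the difference, and the 1 gene is mmp13b (3.36, adjusted p = 0.0109). Of the rows outside the name rule, timp-2b (1.35, adjusted p = 0.0361) and ENSORLG00000014973 (-1.77, adjusted p = 0.0236) also passed with the block. The block leaves 1 degree of freedom to measure a gene's own spread, against 3 in the main fit. Its p-values therefore rest mostly on the spread of other genes. The labels do not say that equal numbers share a clutch or day, and the deviations of equally numbered libraries correlated at 0.06 and -0.01. With 2 mutant libraries the deviations from their mean are mirror images, so these correlations cannot show or exclude a pairing. Leaving out 1 library gave 1 to 7239, 0 to 19 and 0 to 47, the highest each time without mutant library 1. The MMP median of -0.73 was -1.69 with a pseudocount of 0.1, -2.30 with voom, -0.46 with no filter and -0.12 after quantile normalization, and -1.08 to -0.12 with 1 library left out. The ADAM median was -0.37 with a pseudocount of 0.1 and 0.12 after quantile normalization (-0.36 to -0.12 with 1 library left out), the ADAMTS median 0.044 after quantile normalization (-0.45 to -0.040) and the TIMP median -0.37 after it (-1.11 to -0.48). The HTRA median was -0.26 with rows added by description, an alternative chosen after seeing the data, and -0.30 to 0.41 with 1 library left out. htra1a turned to 0.075 with median-of-ratios scaling, 0.050 after quantile normalization, 0.16 with the block and 0.033 with voom. With 1 library left out the log2 differences that turned ran from -0.31 to 0.25 for htra1a, -0.30 to 0.58 for HTRA3, -1.14 to 0.70 for adamts1, -0.44 to 0.68 for adamts18, -0.64 to 0.26 for ADAMTS5, -0.47 to 1.58 for adamts10, -0.17 to 0.87 for mmp9 and -1.02 to 0.094 for mmp14. The cause of these changes was not tested. The floor of 3 reads, 0.0871 to 0.120 FPKM on a gene of 1 kb, falls with gene length.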
